A study of Mus musculus with 13 samples.

Results

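The 36 genes described here encode the glucose transporters, the enzymes of glycolysis and gluconeogenesis, lactate dehydrogenase and the enzymes that gate the entry of pyruvate into the mitochondrion. They were taken by gene symbol from a table of 34745 genes measured by RNA sequencing in kidneys of 13 mice, and each of the 36 was found and was abundant enough to test, among 15703 genes that were. The study asked how loss of DsbA-L, a protein of mitochondria and peroxisomes encoded by Gstk1, altered the kidney's response to lipopolysaccharide (LPS), a bacterial endotoxin that serves as a model of kidney injury in sepsis. The groups were Dsbal knockout mice given LPS (n = 3), wild-type mice given LPS (n = 4), Dsbal knockout mice given saline (n = 3) and wild-type mice given saline (n = 3). Both agents were given by intraperitoneal injection, LPS at 10 mg/kg and saline in 200 µL. The cells in which the gene was deleted, the strain, the age and the time between injection and collection are not given in the sources used here.

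Glycolysis splits glucose to pyruvate through steps that are shared with gluconeogenesis except at hexokinase, phosphofructokinase and pyruvate kinase, where gluconeogenesis uses its own enzymes. In the kidney the proximal tubule makes glucose from lactate and amino acids and takes it back from the filtrate through sodium-coupled transporters at its apical membrane and GLUT2 at its base, and it burns fatty acids and lactate rather than glucose. Glycolysis is known mainly from the more distal nephron and from immune cells, in which inflammatory stimuli raise GLUT1 and hexokinase 2.

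Libraries held 14372212 to 17668334 counts. Levels are given as CPM, counts scaled to a common library size with TMM factors, and differences as log2 fold changes ± SE from the edgeR quasi-likelihood fit of all 13 libraries, in which an adjusted p below 0.05 made a call. Values per library follow 1 order, which for knockout LPS is AKI-320, then AKI-156, then AKI-381, for wild-type LPS AKI-317, then AKI-319, then AKI-12, then AKI-13, and for each saline group N1 to N3. Gstk1 had 27, 1 and 19 counts in the knockout LPS libraries against 297 to 570 in the wild-type LPS libraries, and 41 to 60 in the knockout saline libraries against 660 to 830 in the wild-type saline libraries. By Xist and 4 Y-linked genes the 7 LPS libraries came from males and the 6 saline libraries from females, so LPS and sex cannot be told apart in any comparison with saline. On the first principal component, which held 69.1% of the variance, AKI-156 stood at 79.4, between the other knockout LPS libraries at 18.8 and 20.1 and the wild-type LPS libraries at 94.1 to 110.8, so results between the LPS groups are also given without it.

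Starts of 35 of the 36 genes were matched by symbol in RefSeq (GRCm38.p6), and 4 are shown because the results below turn on them. They are the 250 bases before the start of Slc2a1 and Hk2, which were higher with LPS in wild type, of Slc2a2, which was lower, and of Pck1, a gluconeogenic gene that was lower. Capitals mark ACGTG, the core of the hypoxia response element, in Slc2a1 and Hk2 (CACGT when it lies on the other strand) and TTACGTCA, the cAMP response element known from the Pck1 promoter, in Pck1.
Slc2a1 (chr4:119108495-119108744, + strand): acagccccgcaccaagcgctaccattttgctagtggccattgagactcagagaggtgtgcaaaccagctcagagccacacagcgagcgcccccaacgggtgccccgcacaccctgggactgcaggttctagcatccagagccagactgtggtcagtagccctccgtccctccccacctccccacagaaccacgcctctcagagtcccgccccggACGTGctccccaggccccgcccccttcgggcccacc
Hk2 (chr6:82774455-82774704, - strand): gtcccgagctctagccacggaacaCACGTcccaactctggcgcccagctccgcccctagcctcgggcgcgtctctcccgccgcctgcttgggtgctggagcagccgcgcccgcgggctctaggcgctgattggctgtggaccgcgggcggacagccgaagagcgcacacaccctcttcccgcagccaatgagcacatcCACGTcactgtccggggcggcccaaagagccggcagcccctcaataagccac
Slc2a2 (chr3:28697653-28697902, + strand): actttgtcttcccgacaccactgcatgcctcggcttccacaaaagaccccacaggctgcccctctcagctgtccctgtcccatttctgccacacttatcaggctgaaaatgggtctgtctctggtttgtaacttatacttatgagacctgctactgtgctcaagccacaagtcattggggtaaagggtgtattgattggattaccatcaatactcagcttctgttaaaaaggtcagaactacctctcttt
Pck1 (chr2:173152823-173153072, + strand): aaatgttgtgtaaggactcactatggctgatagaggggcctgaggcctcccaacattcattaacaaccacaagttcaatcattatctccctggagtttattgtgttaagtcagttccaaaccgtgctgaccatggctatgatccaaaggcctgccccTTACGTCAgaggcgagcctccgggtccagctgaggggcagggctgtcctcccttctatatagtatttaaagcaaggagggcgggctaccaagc
ACGTG was searched on both strands in the 250 bases before each start and was found in 16.6% of 32851 promoters and in 19 of the 53 promoters of these genes, 35.8%, which belong to 15 of the 35 matched genes. No match lay in the Slc2a2 window, which says only that these letters are not there. The motif was found for genes that rose and for genes that fell with LPS in wild type, and a link with direction was not tested. Of the other genes that rose there, it was found for Hk3, Pfkfb3, Pkm and Ldha but not for Pdk4, Pklr or Eno2. It was also found for Pfkm, Pdk2, Pgk1, Pgam1, Fbp2 and Pfkfb2, which fell. Among the other genes that fell it was not found for Hk1, Gpi1, Pfkl, Aldoc, Tpi1, Pdk1, Pck1, G6pc, Fbp1 or Slc2a2. Slc5a2 also fell and is the gene whose start was not matched. TTACGTCA, also searched on both strands, was found in 0.447% of promoters and in 1 of the 53. The motifs do not overlap in a shown window, and a match is a description of letters, not a site in use.

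Per length, the gluconeogenic gene Pck1 was the most abundant of the 36 in wild-type saline kidney. Expressed as CPM per kilobase of exon, Pck1, the cytosolic phosphoenolpyruvate carboxykinase, stood at 1243 ± 399 (SD, n = 3) in wild-type saline kidney, followed by G6pc, the catalytic subunit of glucose-6-phosphatase, at 499.8 ± 159, Ldhb, the heart-type lactate dehydrogenase subunit, at 449.8 ± 12.2 and Fbp1, fructose-1,6-bisphosphatase, at 448 ± 30.8. The last 3 did not differ beyond their spread. The lowest were the inducible hexokinase Hk2 at 0.409 ± 0.197, the neuronal-type enolase Eno2 at 0.305 ± 0.129 and the myeloid hexokinase Hk3 at 0.0877 ± 0.0609. The highest means in knockout LPS kidney were those of Pck1 at 539.6 ± 309, Ldhb at 308 ± 31.5 and Pdk4, a kinase that inactivates pyruvate dehydrogenase, at 239 ± 219.9 (n = 3). In wild-type LPS kidney they were those of Pdk4 at 660.4 ± 118 and Pck1 at 537 ± 192 (n = 4). These did not differ beyond their spread. Pck1 ranged over 283 to 883 and Pdk4 over 86.3 to 490.6 in knockout LPS kidneys. Pck1 over 364 to 756 and Pdk4 over 549 to 821 in wild-type LPS kidneys. Hk1, the housekeeping hexokinase, stood above Hk2 in each group mean, at 10.2 ± 3.33 against 2.05 ± 1.23 in knockout LPS kidney and, within their spread, 6.92 ± 2.02 against 6.8 ± 2.41 in wild-type LPS kidney.

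**Figure D1:**
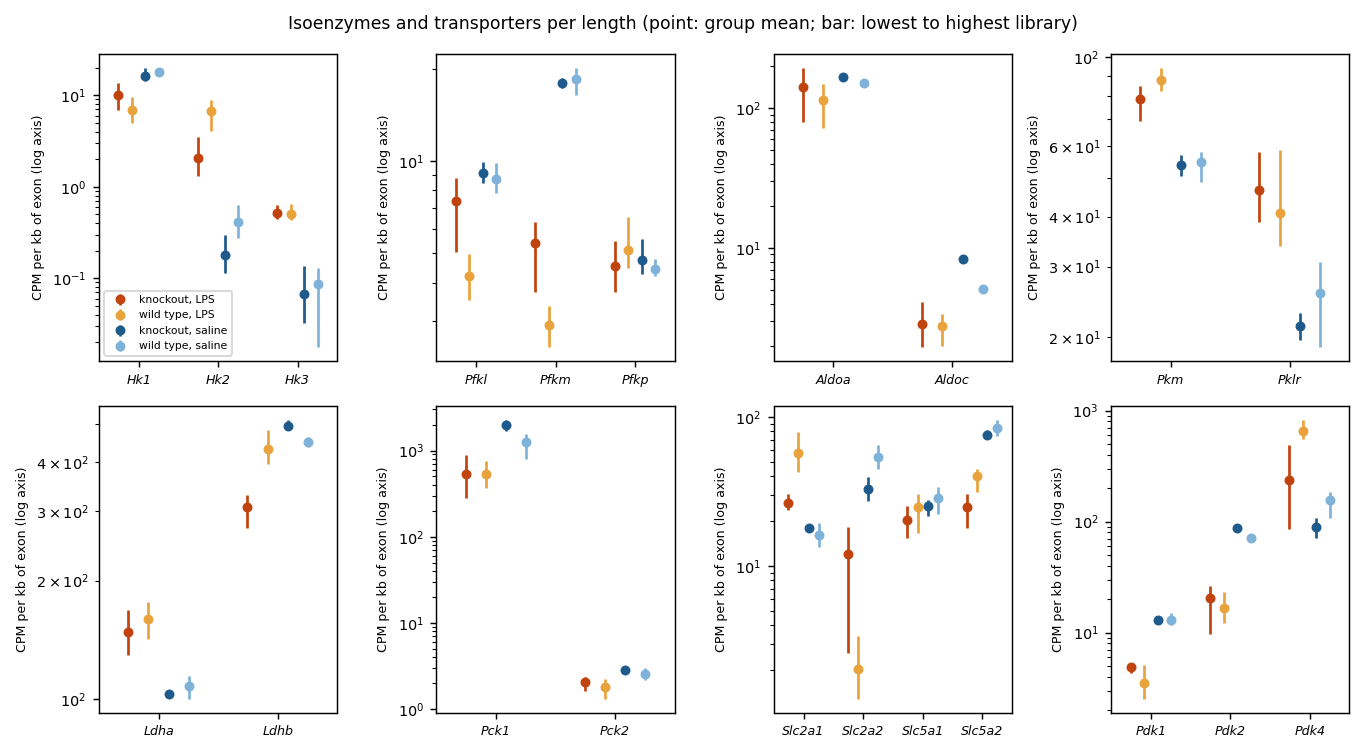
CPM per kilobase of exon (log axis) for isoenzymes and transporters in the 4 groups; points are group means and bars run from the lowest to the highest library. The means of Hk2 and Pdk4 are higher and those of Slc2a2, Pfkm and Pdk2 lower in both LPS groups than in the saline groups.

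With LPS, most genes of glucose output and reabsorption were lower, while Hk2, Hk3, Pdk4, Ldha and pyruvate kinase were higher. In knockout kidney 7 of the 36 genes rose and 13 fell, 19.4% and 36.1%, against 14.7% of all tested genes called higher and 12.9% called lower. In wild-type kidney 9 rose and 17 fell, 25.0% and 47.2%, against 28.4% and 28.6% of all tested genes, so the share that rose there was near that of all genes. The median over the 36 genes was -0.39 in knockout and -0.40 in wild type, against 0.03 and 0.00 over all tested genes. Eno2, Hk2, Hk3, Ldha, Pdk4, Pklr and Pkm rose in both genotypes, and Aldoc, Fbp1, G6pc, Pck1, Pdk1, Pdk2, Pfkm, Pgam1, Pgk1, Slc2a2 and Slc5a2 fell in both. The 2 comparisons with saline share no library. Of the 20 calls in knockout 14 held under each alternative tried, all but those of Ldha, Pdk4, Pgam1, Pgk1, Pkm and Slc2a2. Of the 26 in wild type 22 did, all but those of Eno2, Pck1, Pgk1 and Pklr. The knockout rise of Pdk4 was among those that ended without AKI-156, at 0.33.

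**Figure D2:**
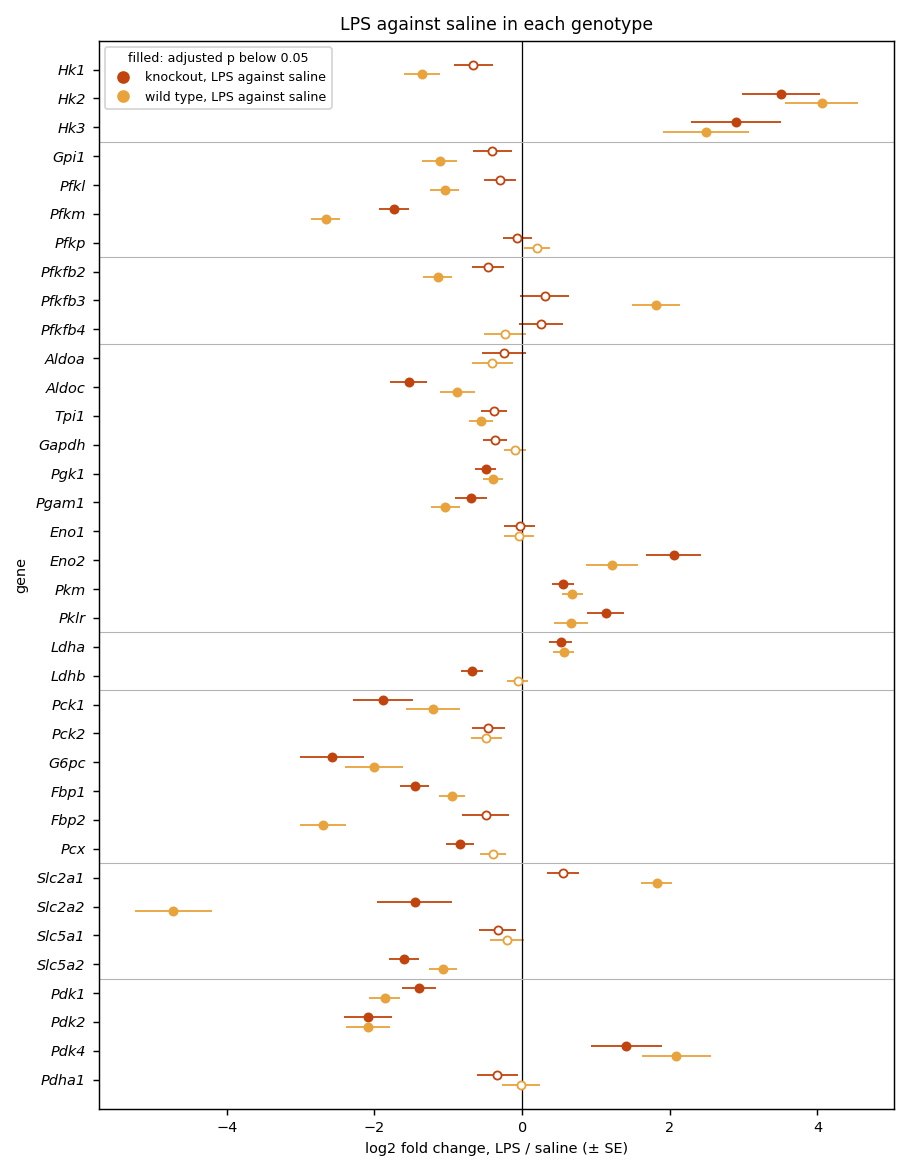
Log2 fold change of LPS against saline (± SE, edgeR) for the 36 genes, ordered by step of the pathway, in knockout (dark) and wild type (light); filled points were called. The values for Slc2a2, Fbp2, Pfkfb3 and Slc2a1 lie farther from 0 in wild type.

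**Figure D3:**
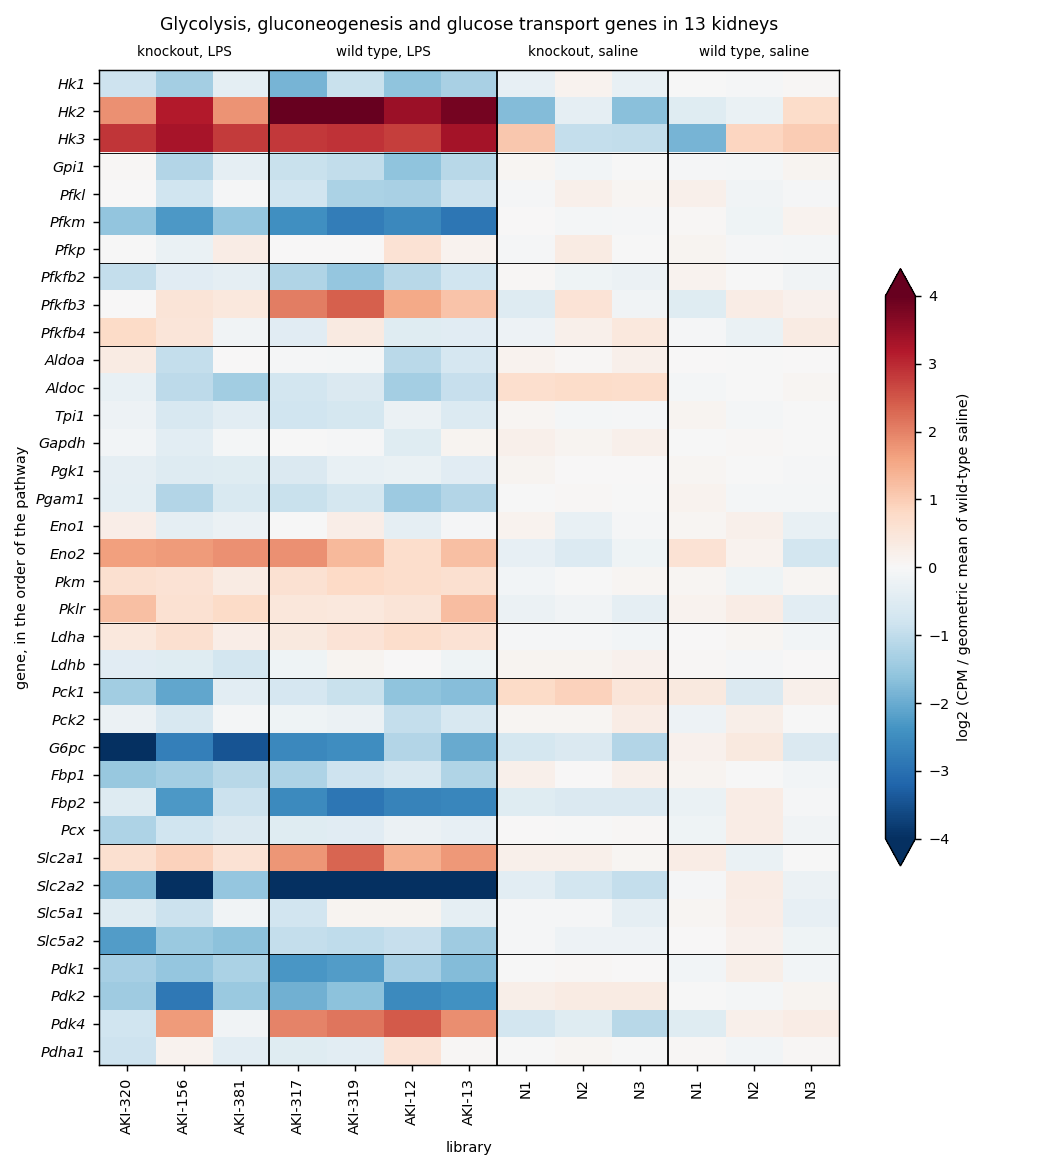
Level of each gene in each of the 13 libraries as log2 of CPM over the geometric mean of wild-type saline kidney; the colour scale ends at -4 and 4, and stronger values take the end colour. Saline libraries lie near 0 for most genes. Exceptions include Hk2, at 0.691 to 1.78 CPM in knockout saline and 1.63 to 3.79 in wild-type saline kidneys, and the scarce Hk3. AKI-156 shares the deep fall of Slc2a2 and Fbp2 with the wild-type LPS libraries.

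Among the 4 glucose transporters, Slc2a1 rose in wild type, Slc2a2 and Slc5a2 fell in both genotypes, and Slc5a1 was called in neither. Slc2a1 (chromosome 4, 119108711 to 119137983, + strand, GRCm38) encodes GLUT1, the basal glucose carrier of many cells. It stood at 86.5, 107 and 83.7 CPM in knockout LPS kidneys, 189, 279, 149 and 185 in wild-type LPS kidneys, 64.9, 65.1 and 59.5 in knockout saline kidneys and 68.1, 46.8 and 55.1 in wild-type saline kidneys. The wild-type LPS libraries lay above all others, and the knockout LPS libraries lay between them and the saline libraries without overlap. By edgeR the LPS change was 0.55 ± 0.22, adjusted p = 0.075 in knockout, which did not pass the test, and 1.82 ± 0.21, adjusted p = 1.3e-05 in wild type. Between the LPS groups it was -1.11 ± 0.21, adjusted p = 0.0063, and the difference of the LPS responses was -1.27 ± 0.30, adjusted p = 0.048.

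Slc2a2 (chromosome 3, 28697903 to 28731359, + strand) encodes GLUT2, the carrier through which the proximal tubule releases glucose to the blood. Its levels were 86.5, 14.9 and 105 CPM in knockout LPS kidneys, 9.63, 7.36, 10.3 and 19.4 in wild-type LPS kidneys, 226, 185 and 157 in knockout saline kidneys and 294, 376 and 258 in wild-type saline kidneys. Of the knockout LPS libraries AKI-156 lay within the wild-type LPS range and the other two far above it, while every LPS library lay below every saline library. The edgeR log2 fold change with LPS was -1.46 ± 0.51, adjusted p = 0.047 in knockout and -4.73 ± 0.52, adjusted p = 7.4e-06 in wild type. The knockout call ended under 12 of 21 alternatives, among them leaving out AKI-156 (-0.98, adjusted p = 0.052). Between the LPS groups Slc2a2 differed by 2.56 ± 0.49, adjusted p = 0.0066, and the difference of the responses was 3.27 ± 0.70, adjusted p = 0.040 by edgeR.

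Slc5a2, which encodes SGLT2, the sodium-coupled transporter that reclaims most filtered glucose, stood at 52, 87.6 and 77.9 CPM in knockout LPS kidneys, 126, 119.8, 130.3 and 90.8 in wild-type LPS kidneys, 235, 213 and 213 in knockout saline kidneys and 245, 276 and 216 in wild-type saline kidneys. All LPS libraries lay below all saline libraries, and the knockout LPS libraries lay below the wild-type LPS libraries, the nearest values being 87.6 in AKI-156 and 90.8 in AKI-13. It fell with LPS by edgeR at -1.6 ± 0.21, adjusted p = 7.9e-05 in knockout and -1.07 ± 0.19, adjusted p = 2.9e-04 in wild type. The LPS groups differed by -0.69 ± 0.19, adjusted p = 0.030, a call that ended under 7 of 21 alternatives, with library totals at -0.36. Slc5a1, which encodes SGLT1 of the late proximal tubule, ranged over 63.1 to 104 CPM in knockout LPS kidneys, 68.5 to 125 in wild-type LPS, 89.4 to 113 in knockout saline and 92 to 139 in wild-type saline kidneys, and its LPS change was -0.33 ± 0.25 in knockout and -0.20 ± 0.23 in wild type without a call.

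Most markers of the proximal tubule, and of other nephron segments, fell with LPS as well. Of 8 markers of the S1 and S2 segments, where SGLT2 and GLUT2 are known to lie, 7 fell with LPS in knockout and 8 in wild type, and their summed level was 1287 to 2059.5 CPM in knockout LPS, 1439 to 1956 in wild-type LPS, 6165 to 7616 in knockout saline and 6871 to 7915 in wild-type saline kidneys. Of 6 S3 markers 4 fell and 1 rose in each genotype. The one that rose was Slc7a13, an amino acid transporter known in mouse kidney for higher levels in males, at 12.2 to 51.3 CPM in knockout LPS, 49 to 141 in wild-type LPS, 0.179 to 0.675 in knockout saline and 0.541 to 4.05 in wild-type saline kidneys. The 6 S3 markers summed to 2419 to 3247 CPM in knockout LPS, 3208 to 4269 in wild-type LPS, 5857 to 6879.6 in knockout saline and 4770.02 to 6181 in wild-type saline kidneys. Of 7 markers of the loop of Henle and distal tubule 6 fell in knockout and 5 in wild type. Of 6 collecting duct markers 4 fell in knockout and 3 in wild type, and no marker of either list was called higher. Of all tested genes 12.9% were called lower in knockout and 28.6% in wild type. Trpm6 of the distal tubule, not called higher, ranged over 54.3 to 66.7 CPM in wild-type LPS and 33.4 to 49.3 in wild-type saline kidneys. The collecting duct markers summed to 195 to 346 CPM in knockout LPS, 220 to 346 in wild-type LPS, 718 to 784 in knockout saline and 498 to 553 in wild-type saline kidneys. In whole kidney, fewer cells of a type and less RNA per cell cannot be told apart, and the part of these shifts in the transporter and gluconeogenesis results was not tested.

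Hexokinases trap glucose in the cell by phosphorylation, and here Hk2 and Hk3 rose with LPS in both genotypes while Hk1 fell in wild type. Hk2 (chromosome 6, 82725025 to 82774454, - strand) encodes the inducible hexokinase that binds mitochondria. Its levels were 8.1, 20.7 and 7.86 CPM in knockout LPS kidneys, 53.1, 52.5, 24.6 and 32.3 in wild-type LPS kidneys, 0.691, 1.78 and 0.716 in knockout saline kidneys and 1.63, 1.9 and 3.79 in wild-type saline kidneys. The LPS and saline libraries did not overlap, and the knockout LPS libraries lay below the wild-type LPS libraries, AKI-156 being nearest to them. By edgeR the LPS change was 3.51 ± 0.53, adjusted p = 2.7e-04 in knockout and 4.06 ± 0.50, adjusted p = 1.7e-05 in wild type. Between the LPS groups it was -1.73 ± 0.43, adjusted p = 0.018, which ended without AKI-320 (-1.49), without AKI-381 (-1.48) or with only the LPS libraries fitted (-1.71).

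Hk3 was near the detection limit, at 1.65 to 2.31 CPM in knockout LPS kidneys, 1.61 to 2.36 in wild-type LPS, 0.119 to 0.502 in knockout saline and 0.0652 to 0.474 in wild-type saline kidneys. It rose by edgeR at 2.9 ± 0.61, adjusted p = 0.0031 in knockout and 2.49 ± 0.58, adjusted p = 0.0023 in wild type. Hk3 is known from neutrophils and other myeloid cells, and 4 neutrophil markers of 7 listed were abundant enough to test and rose in each genotype. Of all tested genes 14.7% were called higher in knockout and 28.4% in wild type. The 7 neutrophil markers summed to 22.1 to 172 CPM in knockout LPS, 29.8 to 136 in wild-type LPS, 1.32 to 2.15 in knockout saline and 1.22 to 1.56 in wild-type saline kidneys, and their part in the rise of Hk3 was not tested. Hk1 ranged over 59.2 to 116 CPM in knockout LPS kidneys, 42.1 to 81.7 in wild-type LPS, 121 to 168 in knockout saline and 146 to 158 in wild-type saline kidneys, and its change was -0.66 ± 0.26, adjusted p = 0.077 in knockout, without a call, and -1.36 ± 0.24, adjusted p = 3.7e-04 in wild type by edgeR.

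At the phosphofructokinase step, which commits sugar to glycolysis, the muscle-type Pfkm fell in both genotypes, the liver-type Pfkl fell in wild type and the platelet-type Pfkp was not called. Pfkm stood at 20.6, 12.4 and 21.1 CPM in knockout LPS kidneys, 11.2, 9.11, 10.3 and 8.22 in wild-type LPS kidneys, 62.2, 57.9 and 59.8 in knockout saline kidneys and 63.1, 54.6 and 66.9 in wild-type saline kidneys. Every LPS library was below every saline library, and the knockout LPS libraries were above the wild-type LPS libraries, AKI-156 by the least. Its LPS change by edgeR was -1.73 ± 0.20, adjusted p = 4.3e-05 in knockout and -2.66 ± 0.19, adjusted p = 3.0e-07 in wild type, and the LPS groups differed by 0.89 ± 0.19, adjusted p = 0.0099. Pfkl ranged over 33.5 to 58.8 CPM in knockout LPS kidneys, 23.5 to 33.2 in wild-type LPS, 56.3 to 65.9 in knockout saline and 52.4 to 65.8 in wild-type saline kidneys. It fell in wild type at -1.05 ± 0.20, adjusted p = 5.9e-04 but had no call in knockout (-0.30 ± 0.21), and between the LPS groups it differed by 0.82 ± 0.20, adjusted p = 0.018 in edgeR. Pfkp ranged over 49.8 to 73.3 CPM in knockout LPS kidneys, 60 to 88 in wild-type LPS, 57.1 to 74.5 in knockout saline and 56.4 to 64.1 in wild-type saline kidneys, with LPS changes of -0.06 ± 0.19 in knockout and 0.20 ± 0.18 in wild type. Gpi1, glucose-6-phosphate isomerase, ranged over 132 to 308 CPM in knockout LPS kidneys, 97.2 to 162 in wild-type LPS, 277 to 316 in knockout saline and 285 to 319.8 in wild-type saline kidneys. It fell in wild type at -1.12 ± 0.24, adjusted p = 0.0014 by edgeR, with -0.40 ± 0.26 in knockout.

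The bifunctional PFKFB enzymes set fructose 2,6-bisphosphate, the activator of phosphofructokinase. Pfkfb3 (chromosome 2, 11471433 to 11554077, - strand), the isoform with the strongest kinase activity, stood at 32.7, 46.1 and 43.1 CPM in knockout LPS kidneys, 131, 169.7, 92.3 and 70.2 in wild-type LPS kidneys, 22.4, 47.1 and 29.1 in knockout saline kidneys and 23.1, 39.5 and 36.3 in wild-type saline kidneys. The wild-type LPS libraries lay above all others, and the knockout LPS libraries lay within the range of the saline libraries. By edgeR the LPS change was 0.31 ± 0.33, adjusted p = 0.54 in knockout, with no call, and 1.81 ± 0.33, adjusted p = 3.9e-04 in wild type. The LPS groups differed by -1.51 ± 0.32, adjusted p = 0.010, and the difference of the responses, -1.51 ± 0.46, adjusted p = 0.089, was not called. Pfkfb2, the heart-type isoform, ranged over 13 to 19.9 CPM in knockout LPS kidneys, 8.73 to 14.5 in wild-type LPS, 21.8 to 26.5 in knockout saline and 22.9 to 28.4 in wild-type saline kidneys. It fell in wild type at -1.14 ± 0.20, adjusted p = 2.8e-04 by edgeR, with -0.46 ± 0.21 in knockout. Pfkfb4 ranged over 6.94 to 13.1 CPM in knockout LPS kidneys, 5.5 to 9.79 in wild-type LPS, 6.66 to 10.3 in knockout saline and 6.39 to 9.54 in wild-type saline kidneys and was called in neither genotype.

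In lower glycolysis, from aldolase to pyruvate kinase, 3 of 10 genes rose and 3 fell in knockout, and 3 rose and 4 fell in wild type, and none was called between the LPS groups. That is 30.0% higher and 30.0% lower in knockout, against 14.7% and 12.9% of all tested genes. In wild type it is 30.0% and 40.0%, against 28.4% and 28.6%, so the share that rose there was near that of all genes. The genes that rose were Eno2 and both pyruvate kinases. Pklr, the liver and red-cell pyruvate kinase, stood at 188, 126 and 139 CPM in knockout LPS kidneys, 113, 109, 116 and 190.3 in wild-type LPS kidneys, 68.9, 74.1 and 63.6 in knockout saline kidneys and 89.9, 99.5 and 61.1 in wild-type saline kidneys. The LPS and saline libraries did not overlap, and AKI-13 stood apart from the other wild-type LPS libraries. Pklr rose by edgeR at 1.13 ± 0.25, adjusted p = 0.0039 in knockout and 0.66 ± 0.23, adjusted p = 0.025 in wild type, where the call ended under 4 of 21 alternatives, among them leaving out AKI-13 (0.43) or saline N3 (0.48).

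Pkm, the pyruvate kinase of most tissues, ranged over 346 to 425 CPM in knockout LPS kidneys, 413 to 469.8 in wild-type LPS, 253 to 286 in knockout saline and 244 to 289.8 in wild-type saline kidneys. It rose at 0.55 ± 0.15, adjusted p = 0.014 in knockout and 0.68 ± 0.14, adjusted p = 0.0010 in wild type by edgeR. The knockout call ended without saline N1 (adjusted p = 0.068) or N2 (adjusted p = 0.052). Eno2 ranged over 4.16 to 4.72 CPM in knockout LPS kidneys, 2.2 to 4.82 in wild-type LPS, 0.92 to 1.19 in knockout saline and 0.812 to 2.02 in wild-type saline kidneys. It rose at 2.05 ± 0.38, adjusted p = 0.0012 and 1.21 ± 0.35, adjusted p = 0.0096 by edgeR in knockout and wild type. The wild-type call of Eno2 ended without saline N3 (0.93, adjusted p = 0.051). Its major relative Eno1 had -0.03 ± 0.21 in knockout and -0.05 ± 0.20 in wild type.

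The genes that fell were Aldoc, Pgam1 and Pgk1 in both genotypes and Tpi1 in wild type. Aldoc, the brain-type aldolase, ranged over 6.38 to 13.4 CPM in knockout LPS kidneys, 6.52 to 11.1 in wild-type LPS, 26.3 to 27.7 in knockout saline and 15.8 to 17.6 in wild-type saline kidneys, with edgeR changes of -1.54 ± 0.26, adjusted p = 6.2e-04 in knockout and -0.88 ± 0.24, adjusted p = 0.0061 in wild type. Pgam1, phosphoglycerate mutase, changed by -0.69 ± 0.22, adjusted p = 0.029 in knockout and -1.04 ± 0.20, adjusted p = 6.3e-04 in wild type, and Pgk1, phosphoglycerate kinase, by -0.50 ± 0.14, adjusted p = 0.020 and -0.39 ± 0.13, adjusted p = 0.021 in edgeR. The knockout calls of Pgam1 and Pgk1 each ended under 5 of 21 alternatives. The wild-type call of Pgk1 ended under 4, with no filter on low counts or without AKI-317, saline N1 or saline N2, while library totals moved it to -0.60. Tpi1, triosephosphate isomerase, fell in wild type (-0.56 ± 0.16, adjusted p = 0.010 by edgeR) and had -0.38 ± 0.18 in knockout, and the difference of the responses, 0.17 ± 0.24, was not called. Gapdh, often used as a stable control, had -0.37 ± 0.17 in knockout and -0.10 ± 0.15 in wild type, and Aldoa, the muscle-type aldolase, -0.24 ± 0.30 and -0.41 ± 0.28, all without a call. Aldoa, Gapdh, Pgk1, Pgam1 and Eno1 have near-identical copies elsewhere in the mouse genome, so the assignment of their reads is uncertain.

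Of the lactate dehydrogenase subunits, Ldha rose with LPS in both genotypes and Ldhb fell in knockout. Ldha, whose subunit favours lactate formation, stood at 482, 559 and 429.8 CPM in knockout LPS kidneys, 471, 525, 586 and 536 in wild-type LPS kidneys, 345, 343 and 335 in knockout saline kidneys and 364, 380.1 and 332 in wild-type saline kidneys. Every LPS library exceeded every saline library. Ldha rose by edgeR at 0.52 ± 0.15, adjusted p = 0.021 in knockout and 0.56 ± 0.14, adjusted p = 0.0045 in wild type, the knockout call ending under 5 of 21 alternatives. Ldhb, whose subunit favours lactate use, had 517, 507 and 427 CPM in knockout LPS kidneys, 621, 757, 707 and 628 in wild-type LPS kidneys, 767, 754 and 801 in knockout saline kidneys and 724, 686 and 709 in wild-type saline kidneys. The knockout LPS libraries lay below all other libraries, and the wild-type LPS libraries overlapped the saline libraries. Its change by edgeR was -0.68 ± 0.15, adjusted p = 0.0044 in knockout, -0.06 ± 0.14, adjusted p = 0.74 in wild type and -0.49 ± 0.14, adjusted p = 0.035 between the LPS groups, where the call ended under 13 of 21 alternatives and the value was -0.15 with library totals.

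Pyruvate dehydrogenase is switched off by the PDK kinases, and their transcripts moved in opposite directions. Pdk4 (chromosome 6, 5483351 to 5496309, - strand), the isoform induced by fasting and glucocorticoids, stood at 303, 1723 and 487 CPM in knockout LPS kidneys, 2106, 2358, 2882 and 1928 in wild-type LPS kidneys, 317.5, 379.8 and 247 in knockout saline kidneys and 382, 608 and 647 in wild-type saline kidneys. Wild-type LPS libraries were far above the saline libraries, AKI-156 was the knockout LPS library nearest to them, and AKI-320 and AKI-381 lay within the range of the 6 saline libraries. By edgeR the LPS change was 1.41 ± 0.48, adjusted p = 0.041 in knockout and 2.09 ± 0.47, adjusted p = 0.0019 in wild type. Without AKI-156 the knockout value was 0.33 (adjusted p = 0.47 by edgeR), so that value rested largely on this library. The knockout call also ended with limma-voom and with only the groups compared. It ended as well without each knockout saline library in turn, and without wild-type saline N2 or N3. Between the LPS groups Pdk4 differed by -1.47 ± 0.46, adjusted p = 0.046 by edgeR, and 13 of 21 alternatives ended the call. Without AKI-156, the knockout library nearest to wild type, the value was -2.55, a widening set by which library was left out.

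Pdk2, the broadly expressed kinase, stood at 83.6, 30.7 and 80.3 CPM in knockout LPS kidneys, 58.8, 72.7, 38.5 and 41.6 in wild-type LPS kidneys, 263, 279 and 283 in knockout saline kidneys and 220.4, 212 and 241 in wild-type saline kidneys. The LPS libraries lay below the saline libraries without overlap, and the LPS groups overlapped. It fell by edgeR at -2.08 ± 0.32, adjusted p = 3.7e-04 in knockout and -2.09 ± 0.29, adjusted p = 5.5e-05 in wild type. Pdk1, a kinase known as a hypoxia target, ranged over 33.9 to 40.9 CPM in knockout LPS kidneys, 19.7 to 39.8 in wild-type LPS, 98.4 to 102 in knockout saline and 91.4 to 117 in wild-type saline kidneys. It fell at -1.4 ± 0.23, adjusted p = 6.0e-04 in knockout and -1.86 ± 0.22, adjusted p = 1.1e-05 in wild type by edgeR. Pdha1, the catalytic subunit that these kinases phosphorylate, ranged over 358 to 694 CPM in knockout LPS kidneys, 456 to 933 in wild-type LPS, 623 to 665 in knockout saline and 592 to 656 in wild-type saline kidneys. It was called in no comparison.

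Gluconeogenesis genes fell with LPS in both genotypes, 4 of 6 in each and none rising. That is 66.7% lower, against 12.9% of all tested genes in knockout and 28.6% in wild type. Pck1 (chromosome 2, 173153048 to 173159273, + strand) had 1551, 972 and 3029 CPM in knockout LPS kidneys, 2592, 2191, 1333 and 1247 in wild-type LPS kidneys, 7017, 7724 and 5777 in knockout saline kidneys and 5332, 2719 and 4734 in wild-type saline kidneys. Each knockout LPS library was below each knockout saline library, and each wild-type LPS library was below each wild-type saline library, with 2592 in AKI-317 close to 2719 in N2. It fell by edgeR at -1.89 ± 0.41, adjusted p = 0.0036 in knockout and -1.21 ± 0.37, adjusted p = 0.012 in wild type. The wild-type value was -1.02 without saline N1, where the call ended. The LPS groups overlapped widely (0.01 ± 0.37).

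G6pc (chromosome 11, 101367561 to 101377903, + strand), which releases free glucose as the last step, stood at 57.3, 173 and 105 CPM in knockout LPS kidneys, 196, 207, 516 and 284 in wild-type LPS kidneys, 711, 777 and 513 in knockout saline kidneys and 1314, 1525 and 779.9 in wild-type saline kidneys. Within each genotype the LPS libraries lay below the saline libraries, and the knockout libraries lay below the wild-type libraries with LPS and with saline alike. Its LPS change by edgeR was -2.58 ± 0.44, adjusted p = 7.3e-04 in knockout and -2.0 ± 0.39, adjusted p = 6.7e-04 in wild type. The LPS groups differed by -1.43 ± 0.40, adjusted p = 0.032 by edgeR. The call ended without AKI-12 (-1.03), AKI-320 (-1.09) or AKI-381 (-1.36), or with only the LPS libraries fitted (-1.41). With saline the difference was -0.85 ± 0.42, adjusted p = 1.0, not called.

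Fbp1, the kidney and liver fructose-1,6-bisphosphatase, stood at 268, 296 and 350.3 CPM in knockout LPS kidneys, 321, 431, 492 and 329 in wild-type LPS kidneys, 875, 764 and 868 in knockout saline kidneys and 816, 758 and 712 in wild-type saline kidneys. LPS and saline libraries did not overlap, and the LPS groups did. Fbp1 fell by edgeR at -1.46 ± 0.19, adjusted p = 1.0e-04 in knockout and -0.95 ± 0.18, adjusted p = 4.5e-04 in wild type. Its muscle-type relative Fbp2 (chromosome 13, 62836884 to 62858400, - strand) had 23.3, 6.81 and 18.6 CPM in knockout LPS kidneys, 5.73, 4.48, 5.2 and 5.43 in wild-type LPS kidneys, 23.8, 22.2 and 22.7 in knockout saline kidneys and 27.9, 41.4 and 32.5 in wild-type saline kidneys. The wild-type LPS libraries lay lowest, AKI-156 stood next to them, and AKI-320 and AKI-381 lay in or near the knockout saline range. By edgeR Fbp2 changed by -0.49 ± 0.32, adjusted p = 0.28 in knockout, without a call, and -2.7 ± 0.31, adjusted p = 1.1e-05 in wild type. The LPS groups differed by 1.64 ± 0.31, adjusted p = 0.0064, and the responses by 2.21 ± 0.44, adjusted p = 0.037.

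Pcx, pyruvate carboxylase, which starts gluconeogenesis from pyruvate, ranged over 297 to 471 CPM in knockout LPS kidneys, 495 to 587 in wild-type LPS, 681 to 722 in knockout saline and 622 to 850.4 in wild-type saline kidneys. It fell in knockout by edgeR at -0.85 ± 0.19, adjusted p = 0.0048, with -0.39 ± 0.18, adjusted p = 0.072 in wild type. Pck2, the mitochondrial carboxykinase, ranged over 12.7 to 18.7 CPM in knockout LPS kidneys, 10.3 to 17.6 in wild-type LPS, 20.9 to 24.2 in knockout saline and 17.1 to 23.5 in wild-type saline kidneys. It was not called, with -0.46 ± 0.22 in knockout and -0.49 ± 0.21 in wild type.

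Between the LPS groups, knockout kidneys had more transcript of the basolateral transporter GLUT2, Fbp2 and 2 phosphofructokinases and less of GLUT1, hexokinase 2, Pfkfb3, Pdk4, G6pc, SGLT2 and Ldhb than wild-type kidneys. That is 4 of the 36 genes higher and 7 lower, 11.1% and 19.4%, against 8.74% and 6.29% of all tested genes. The share that was higher was near that of all genes. The median was 0.02 over the 36 genes and 0.00 over all. None of these 11 calls held under each alternative. Fitting only the 7 LPS libraries left 0 of the 36 genes called in either direction and 102 genes in all, against 2361 from 13 libraries, with an unadjusted p below 0.05 for 3247 genes. In the fit of 13 libraries 17 of the 36 had an unadjusted p below 0.05. Scaling by library totals moved the median of all genes by 0.34 and gave 11 higher and 5 lower, and of all genes called 87.4% were then higher, against 58.2%.

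Without AKI-156 there were 8 higher and 7 lower, without AKI-320 3 and 1, without AKI-381 2 and 1, without AKI-319 4 and 4, and without AKI-12 5 and 3. AKI-156 was the knockout library nearest the wild-type LPS mean for 10 of the 11 called genes and for 20 of the 36, and it lay within the wild-type LPS range for 16 genes, against 12 for AKI-320 and 12 for AKI-381. These counts were made for the 36 genes only. For some genes AKI-156 sided with AKI-12 and AKI-13 of wild type rather than with the other LPS libraries. Pdha1 stood at 694, 933 and 648 CPM in AKI-156, AKI-12 and AKI-13, against 358 to 476 in the others. The 7 neutrophil markers summed to 172, 136 and 89.5 CPM there, against 22.1 to 30.2. Fbp2 and Pfkm did not divide so. What sets these libraries apart was not tested. Only Slc2a2 among the called genes had overlapping groups, through AKI-156. The calls rest on the same libraries, so this is no separate support for them. Of all 36 genes the knockout LPS libraries lay above without overlap for 3 and below for 8, among them Pcx, which was not called. The share of all tested genes without overlap is not given here.

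**Figure D4:**
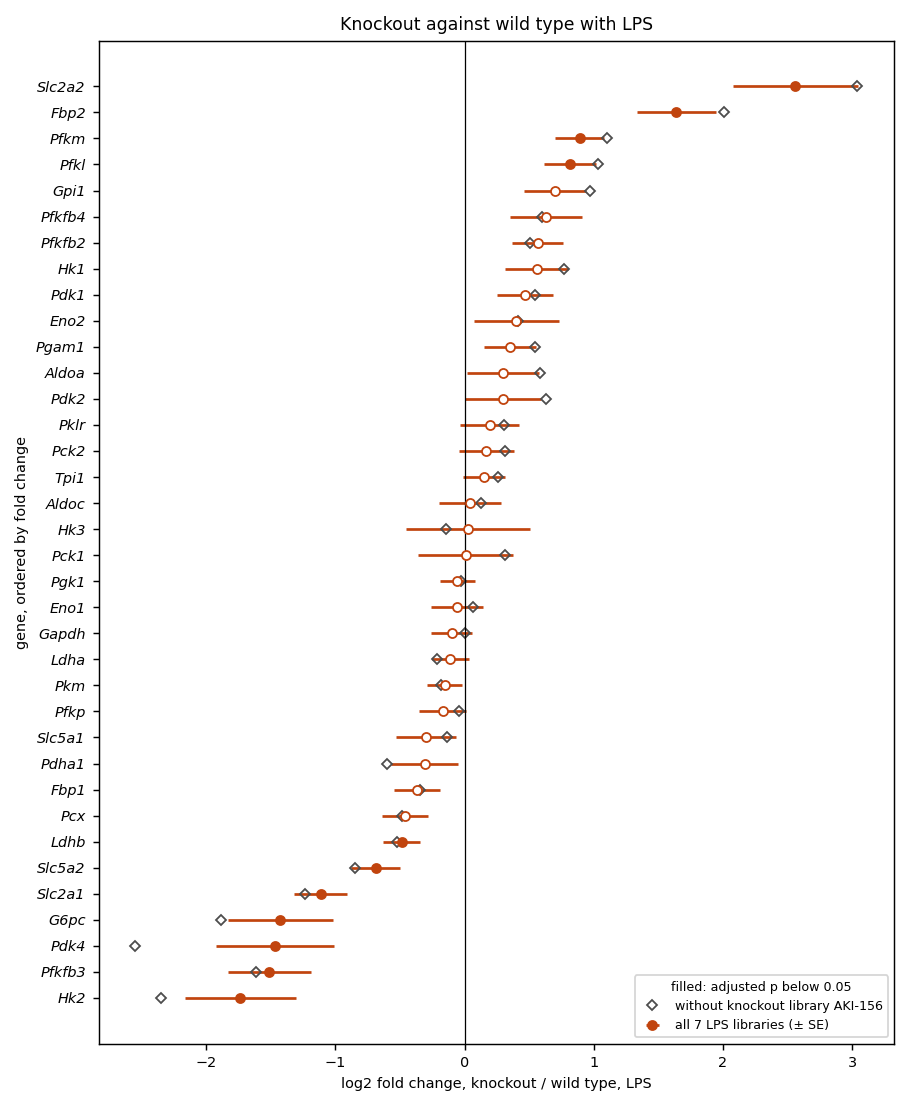
Log2 fold change of knockout against wild type with LPS for the 36 genes, ordered by size; points with bars are values ± SE from all libraries, filled where called, and open diamonds the values without AKI-156. Without it Slc2a2, Fbp2, Hk2, Pdk4 and G6pc lie farther from 0. For each of these AKI-156 is the knockout library nearest the wild-type LPS mean, so leaving it out moves the value this way.

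**Figure D5:**
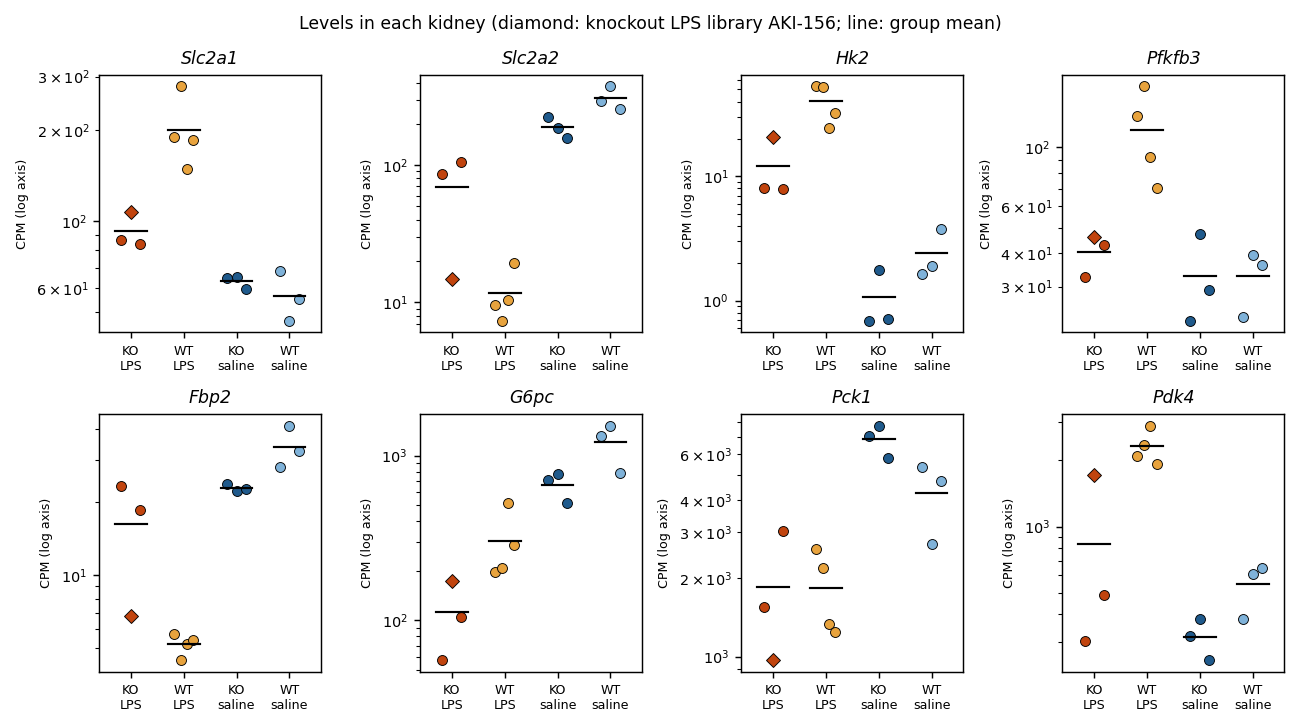
CPM (log axis) of 8 genes in each kidney by group; lines are group means and the diamond is AKI-156. It stands with or nearest to the wild-type LPS kidneys for Slc2a1, Slc2a2, Hk2, Pfkfb3, Fbp2, G6pc and Pdk4, and is the lowest of the 7 LPS kidneys for Pck1.

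Markers of other compartments differed between the LPS groups as well, where 8.74% of all tested genes were called higher in knockout and 6.29% lower. The 7 macrophage markers, of which 6 were called higher in knockout, summed to 108 to 129 CPM in knockout LPS, 54.3 to 70.8 in wild-type LPS, 99.3 to 102 in knockout saline and 79.2 to 95.2 in wild-type saline kidneys. The 7 endothelial markers, 5 higher and 1 lower, summed to 479 to 619 CPM in knockout LPS, 297 to 429 in wild-type LPS, 562 to 610.1 in knockout saline and 526 to 579 in wild-type saline kidneys, and the 7 markers of the loop of Henle and distal tubule, 2 higher, to 2659 to 3597 CPM in knockout LPS, 1237 to 2426 in wild-type LPS, 7396 to 8503 in knockout saline and 7156 to 7300.5 in wild-type saline kidneys. Their part in the differences of Slc2a1, Hk2, Pfkl and Pfkm was not tested. For the S1 and S2 markers of the proximal tubule the LPS groups overlapped, with 1 of 8 called lower in knockout.

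With saline, 0 of the 36 genes were called between knockout and wild type by edgeR, DESeq2 or limma-voom, against 0.0191% of all tested genes by edgeR, and 2 of the 36 had an unadjusted p below 0.05 in edgeR. The knockout libraries lay above the wild-type libraries without overlap for 6 genes and below for 4, where 9.76% and 10.1% of all tested genes did. Those above were Aldoa, Aldoc, Gapdh, Ldhb, Pck1 and Pdk2, and those below were Fbp2, G6pc, Pdk4 and Slc2a2. The widest differences were -1.19 ± 0.55 for Hk2, which overlapped, and -0.85 ± 0.42 for G6pc. Aldoc, at 26.3, 27.7 and 27.1 CPM in knockout and 15.8, 16.5 and 17.6 CPM in wild type, differed by 0.70 ± 0.25, adjusted p = 1.0 in edgeR.

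The interaction term of edgeR sets LPS against saline in each genotype, so LPS and sex cannot be told apart in it. By this term the genotypes differed for 3 of the 36 genes. That is 2 higher in knockout and 1 lower, 5.56% and 2.78%, against 1.36% and 0.745% of all tested genes. These were Fbp2 (2.21 ± 0.44, adjusted p = 0.037), Slc2a2 (3.27 ± 0.70, adjusted p = 0.040) and Slc2a1 (-1.27 ± 0.30, adjusted p = 0.048) by edgeR. None held under each alternative, and limma-voom called 0 of the 36, of which 8 had an unadjusted p below 0.05 in edgeR. Leaving out either AKI-320 or AKI-381, or any 1 saline library, also ended all 3 calls, as did leaving out AKI-319. Without AKI-317 Fbp2 kept its call, without AKI-12 Fbp2 and Slc2a1 did, and without AKI-156 there were 5 higher and 4 lower. Library totals gave 3 higher and 0 lower, and DESeq2 gave 3 and 3.

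Ratios of isoenzymes within a library do not depend on library scaling, and 14 pairs were compared in each of 4 comparisons. The tests used log2 ratios of the deposited FPKM, and the ranges below are ratios of CPM per kilobase of exon. With 3 libraries against 4 the smallest p of a two-sided exact permutation test is 0.0571, and with 3 against 3 it is 0.1, so no ratio could pass 0.05. Slc2a1 over Slc2a2 was 1.3 to 11.8 in knockout LPS libraries, 15.7 to 62.1 in wild-type LPS, 0.472 to 0.622 in knockout saline and 0.205 to 0.38 in wild-type saline libraries. The 4 groups did not overlap, and GLUT1 transcripts outnumbered GLUT2 transcripts per length in each LPS library and in no saline library. Hk2 over Hk1 was 0.0968 to 0.50 with LPS in knockout, 0.70 to 1.8 with LPS in wild type, 0.00818 to 0.0152 with saline in knockout and 0.0155 to 0.0342 with saline in wild type.

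Pfkp over Pfkm was 0.716 to 1.0 in knockout LPS, 1.34 to 2.12 in wild-type LPS, 0.229 to 0.321 in knockout saline and 0.21 to 0.265 in wild-type saline libraries. The LPS libraries lay above the saline libraries, and wild-type LPS above knockout LPS. Ldha over Ldhb was 0.442 to 0.523 in knockout LPS, 0.329 to 0.405 in wild-type LPS, 0.198 to 0.216 in knockout saline and 0.222 to 0.263 in wild-type saline libraries, so Ldhb stayed the more abundant in every library. Here the knockout was above wild type with LPS and below it with saline.

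Pdk4 over Pdk2 was 3.27 to 50.5 in knockout LPS, 29.2 to 67.5 in wild-type LPS, 0.787 to 1.23 in knockout saline and 1.56 to 2.58 in wild-type saline libraries, with the LPS groups overlapping. Pkm over Pklr was 1.46 to 2.11 with LPS against 2.35 to 2.91 with saline in knockout, and 1.46 to 2.78 against 1.59 to 3.05 in wild type, where the ranges overlapped. Slc5a1 over Slc5a2 was 0.509 to 1.1 in knockout LPS, 0.383 to 0.738 in wild-type LPS, 0.296 to 0.374 in knockout saline and 0.301 to 0.355 in wild-type saline libraries, higher with LPS in both genotypes.

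Genes outside the 36 were read in lists of neighbouring pathways. Their counts stand against 14.7% of all tested genes higher and 12.9% lower with LPS in knockout and 28.4% and 28.6% in wild type. Of 13 other glycolysis and gluconeogenesis enzymes tested, of 15 listed, 2 rose and 4 fell with LPS in each genotype, 15.4% and 30.8%. This was near the share of all genes for those higher in knockout and lower in wild type. Slc37a4, which carries glucose 6-phosphate to glucose-6-phosphatase, changed by -1.21 ± 0.20 in knockout and -1.32 ± 0.19 in wild type. Ldhd, the D-lactate dehydrogenase, rose by 1.02 ± 0.22 and 2.01 ± 0.21 and differed by -0.94 ± 0.20 between the LPS groups. All 5 values were called.

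Of 14 other genes of sugar and related transport, among them the fructose kinase Khk and Slc5a12, which is also in the proximal tubule list, 1 rose and 9 fell in knockout and 1 rose and 10 fell in wild type, so 64.3% and 71.4% were lower. The gene that rose was Slc2a6, which encodes GLUT6, known from inflammatory macrophages, at 4.94 ± 0.45 in knockout and 5.53 ± 0.41 in wild type, with -1.49 ± 0.31 between the LPS groups. Slc2a5, the fructose carrier GLUT5, changed by -2.45 ± 0.49 and -4.25 ± 0.48, and Slc2a13, a myo-inositol carrier, by -2.66 ± 0.51 and -5.82 ± 0.61. Between the LPS groups both were called higher in knockout, at 2.0 ± 0.46 and 3.55 ± 0.65.

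Of 14 genes of lactate and pyruvate transport and the pyruvate dehydrogenase complex, 2 rose and 5 fell in knockout and 3 rose and 6 fell in wild type, 35.7% and 42.9% lower. The 14.3% higher in knockout was near the share of all genes. Slc16a1, the lactate carrier MCT1, rose by 2.45 ± 0.38 in knockout and 2.41 ± 0.37 in wild type, and Slc16a3, the lactate exporter MCT4, by 2.27 ± 0.37 and 1.73 ± 0.34. Slc16a7, the high-affinity carrier MCT2, fell, with -2.62 ± 0.31 and -3.79 ± 0.29. Of 8 pentose phosphate genes 4 rose and 0 fell in knockout, and 5 rose and 1 fell in wild type, so 62.5% were higher in wild type. The oxidative enzymes G6pdx, at 1.09 ± 0.25 and 1.21 ± 0.24, and Pgd, at 1.68 ± 0.21 and 1.9 ± 0.20, were among them, with Taldo1, transaldolase, at 1.53 ± 0.18 and 1.96 ± 0.18.

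Of 17 glycogen genes 1 rose and 2 fell in knockout, 5.88% and 11.8%, and 3 rose and 6 fell in wild type, 17.6% and 35.3%. This is near or below the share of all genes except for those lower in wild type. Pygl, glycogen phosphorylase, was among those that fell, at -1.52 ± 0.25 and -2.21 ± 0.24. Of 17 hypoxia-response genes outside glycolysis 3 rose and 3 fell in knockout, 17.6% each way, and 6 rose and 6 fell in wild type, 35.3% each way. These are not far from the shares of all genes. Hif1a itself rose by 0.88 ± 0.29 and 1.58 ± 0.28 and Ddit4, an mTOR inhibitor, by 1.26 ± 0.29 and 2.71 ± 0.29, whereas Vegfa, the endothelial growth factor, changed by -1.04 ± 0.24 and -1.79 ± 0.22 and was lower. Of 18 regulators of gluconeogenic transcription 3 rose and 7 fell in knockout and 4 rose and 7 fell in wild type, so 38.9% were lower in each. Ppargc1a, the coactivator PGC-1alpha, changed by -1.43 ± 0.30 and -2.87 ± 0.28 and differed by 1.38 ± 0.28 between the LPS groups, Hnf4a, a nuclear receptor of the proximal tubule, by -1.11 ± 0.22 and -1.45 ± 0.20, and Irs1, an insulin receptor substrate, by -1.6 ± 0.22 and -2.16 ± 0.21. Cebpd, an inflammatory transcription factor of the same list, rose by 3.06 ± 0.49 and 4.85 ± 0.52.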

How the data were processed

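Total RNA of whole kidney was sequenced, 1 library per mouse. Per the file headers, the deposited table gives raw counts and FPKM per gene and library, in 26 columns matched to samples by name. The FPKM that the authors deposited were used to recover their gene lengths and to test the ratios of isoenzymes. These lengths exceeded the gene's whole span for 8.21% of 15240 genes. Levels per length and the printed ranges of ratios therefore use merged exon lengths of GENCODE M21, an alternative chosen after seeing the data. HISAT2, TopHat, TopHat2 2.0.9, edgeR and the human build hg38 appear without roles in the submitters' processing notes. The identifiers are Ensembl mouse ones, 34267 of which lie on the same chromosome in GENCODE M21 (80.8% with the same start and end), so coordinates were read as GRCm38. The strand setting is not given in the sources used here.

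Counts were analysed in R 4.3.3 with edgeR 4.0.16 (filterByExpr, minimum count 10; TMM factors; quasi-likelihood F-test with a mean per group; Benjamini-Hochberg over 15703 genes). The SE is the fold change divided by the root of F. The main edgeR fit was tested on 1 set of simulated counts, for knockout against wild type with LPS only. The other comparisons and the alternatives were not tested in this way. Alternatives were RLE factors, library totals, DESeq2 1.42.0, limma-voom 3.58.1, other filters, no mitochondrial genes, only the groups compared, a block for saline numbers and each library left out. The 36 genes and the lists were chosen with earlier results of these data known. Of the pathway lists, up to 4 called genes with the smallest p per comparison could be named. The labels do not state litters or batches, so p-values measure only the spread between these libraries, which may in part be technical.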

Additional observations from a re-analysis of the deposited data

Results flagged for a closer look

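In the wild-type LPS group, the only group of 4 libraries, 36 genes were examined for a library standing apart, and chance marks about 1 in 20 such groups. For Pfkfb4 the gap of AKI-319, at 9.79 CPM, to the nearest of the others, at 5.6, 5.5 and 5.57 CPM, took 0.969 of the range on the log2 scale. For Pklr the gap of AKI-13, at 190.3 CPM, to the others, at 109 to 116 CPM, took 0.891.

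The LPS responses differed between the genotypes in the edgeR interaction test for Slc2a2 (3.27 ± 0.70, adjusted p = 0.040), for Fbp2 (2.21 ± 0.44, adjusted p = 0.037) and for Slc2a1 (-1.27 ± 0.30, adjusted p = 0.048), as knockout response minus wild-type response. Over the alternatives the adjusted p ranged over 2.2e-04 to 0.11 for Slc2a2, 1.3e-04 to 0.10 for Fbp2 and 0.0032 to 0.13 for Slc2a1. LPS and sex cannot be told apart in this test.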

How the results depend on the processing

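Of 3778 values of the 36 members under alternatives, 3609 kept their side of the threshold, 132 were no longer called and 37 became called. Among the 3609, 112 without a call in either fit changed sign, 21 of them with library totals, and 0 values with a call in either fit did. Of 60 member calls 36 held under each alternative, all of them LPS against saline. Members higher and lower in knockout against wild type with LPS numbered 4 and 7, but 11 and 5 with library totals and 0 and 0 with only the groups compared, and 2 to 8 and 1 to 7 with 1 library left out. For the difference of the LPS responses they numbered 2 and 1, but 3 and 0 with library totals, 3 and 3 with DESeq2 and 0 and 0 with limma-voom, and 0 to 5 and 0 to 4 with 1 library left out. With LPS against saline in knockout 4 to 8 members were higher when 1 library was left out. Over all genes, library totals called 3323 higher and 477 lower between the LPS groups, against 1373 and 988, and 801 and 94 for the difference of responses, against 213 and 117, which DESeq2 put at 783 and 602, limma-voom at 65 and 58 and the unfiltered table at 306 and 159. Leaving out 1 library gave 520 to 4539 called genes between the LPS groups, 9 with only the saline libraries fitted and 25 with DESeq2 against 3 between the saline groups, and 10 to 2529 for the difference of responses, against 330. Library totals in knockout gave 70.1% of called genes higher, against 53.3%. The cause was not tested. Log2 ratios within a library were recomputed from counts with 0.5 added, and 56 of 56 differences moved by less than the larger group SD. The deposited FPKM are counts over a fixed gene length and the library total. Apart from the added 0.5 this outcome was therefore settled in advance, and it is no check of the ratios.

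Saline numbers N1 to N3 recur in both genotypes. Deviations of same-numbered libraries correlated at -0.0501 to 0.0179 over genes, so the numbers gave no pairing. With the replicate block 0 members were called higher and 0 lower, and 1 gene in all, against 3. The LPS libraries share no number.

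Limits: LPS and sex cannot be told apart, whole kidney mixes cell types, groups hold 3 or 4 mice, and the spread used between the LPS groups rests in part on the saline libraries. Genes of few counts, such as Hk3 with 1 to 36 per library, are the least precise.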
